A study of Homo sapiens with 3 samples.

Results

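Transcript levels in HEK293T cells overexpressing ADAR2 were compared with those of the same cells without overexpression, gene by gene. The comparison took in 16089 genes, out of 57268 gene identifiers counted, whose mean level over the 2 libraries was at least 1 CPM (counts per 1000000 reads, scaled for library composition). The lowest mean level inside this limit was 1 CPM, the highest outside it was 0.9998 CPM, and 145 genes lay inside it by no more than 5%. HEK293T is a human embryonic kidney line. The library titles give the line as HEK293 and the cell line field as HEK 293T. The control was the wild-type line with nothing overexpressed, and the other library came from cells overexpressing ADAR2 alone. The third library of the study, from cells overexpressing ADAR2 and SRSF9 together, is used here for side-by-side values only. The sources used here do not say whether overexpression was transient or stable, nor the vector, the harvest time or whether the control received an empty vector.

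ADAR2, the product of ADARB1, is one of the enzymes that turn adenosine into inosine in double-stranded RNA. It is known above all from neurons, where it recodes the messenger RNA of a glutamate receptor subunit, and it also edits many noncoding duplexes in other cells. The enzyme binds duplex RNA through double-stranded RNA binding domains, and its editing can alter codons, splice sites and microRNA sites. Counted reads were summed by gene, which gives transcript levels and carries no information on editing. With 1 library a side, every difference below is between 2 libraries. Intervals in brackets are 95% counting intervals of the ratio, which cover counting error only, and no p-value can be given.

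The control held 152878282 counted reads and the ADAR2 library 132887974, so a single read was worth 0.00647 and 0.00745 CPM. Of 18 genes that mark HEK293 cells, 16 were at 1 CPM or more, and their summed level was 991 CPM without and 992 CPM with ADAR2. Of 10 fibroblast markers 1 passed that level, COL1A1, and of 12 markers each of blood cells and of other epithelial lines 5 did. The blood markers summed to 15.8 CPM without and 18.2 CPM with ADAR2, largely through globin genes, with PTPRC, the common leukocyte antigen, at 0.0388 and 0.0372 CPM. The epithelial markers summed to 48.1 and 47.2 CPM, and the fibroblast markers to 35.9 and 34.8 CPM.

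ADARB1 stood at 114 CPM without and 16100 CPM with ADAR2, a ratio of 142 (140 to 144). Other deaminases of the list were near the control or a little above it. ADAR, which encodes the ubiquitous ADAR1, had 235 CPM without and 231 CPM with ADAR2 (ratio 0.982), and ADARB2, the family member without known activity, had 0 reads and 1 read. ADAT3, a subunit of the tRNA wobble deaminase, had 3.72 and 5.32 CPM, a ratio of 1.43 (1.28 to 1.6). SRSF9, the splicing factor added in the third library, was at 372 and 369 CPM. The 7 measured genes of the ADAR and tRNA deaminase list had a median GC-adjusted log2 ratio of 0.12, against 0.01 over all genes. The 7 include ADARB1, raised by design. After the adjustment 2 were called higher, ADARB1 itself and ADAT3, where 3.33% of all genes with a GC value were. Of the 10 measured genes nearest to ADARB1 on chromosome 21, 5 on each side, none came near its ratio of 142. ITGB2, described below, was the highest of them, with a ratio of 3.5 (2.67 to 4.63). The other 9 had ratios between 0.978 and 1.49, with LINC00205 alone below 1. Their GC-adjusted log2 ratios ran from -0.11 for LINC00205 to 0.47 for LL21NC02-1C16.1, with COL18A1 (-0.04) and AL133493.2 (-0.02) also below 0.

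Apart from ADARB1, the 2 libraries were close to each other. The ratio lay within 0.32 on the log2 scale for 91.6% of all measured genes, and for 97.4% of the 9572 protein-coding genes with a mean level of 10 CPM or more. A gene was called when its ratio reached 1.5-fold and its counting interval excluded 1. By this rule 100 genes were higher in the ADAR2 library, 0.622% of the 16089, and 100 were lower, again 0.622%. Most of them were scarce transcripts. Of the genes called higher 78 had a mean level under 3 CPM and 1, ADARB1, reached 10 CPM. Of those called lower 75 were under 3 CPM and 7 reached 10 CPM. Protein-coding genes made up 46 of the higher and 56 of the lower genes, and pseudogenes 21 and 13.

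**Figure D1:**
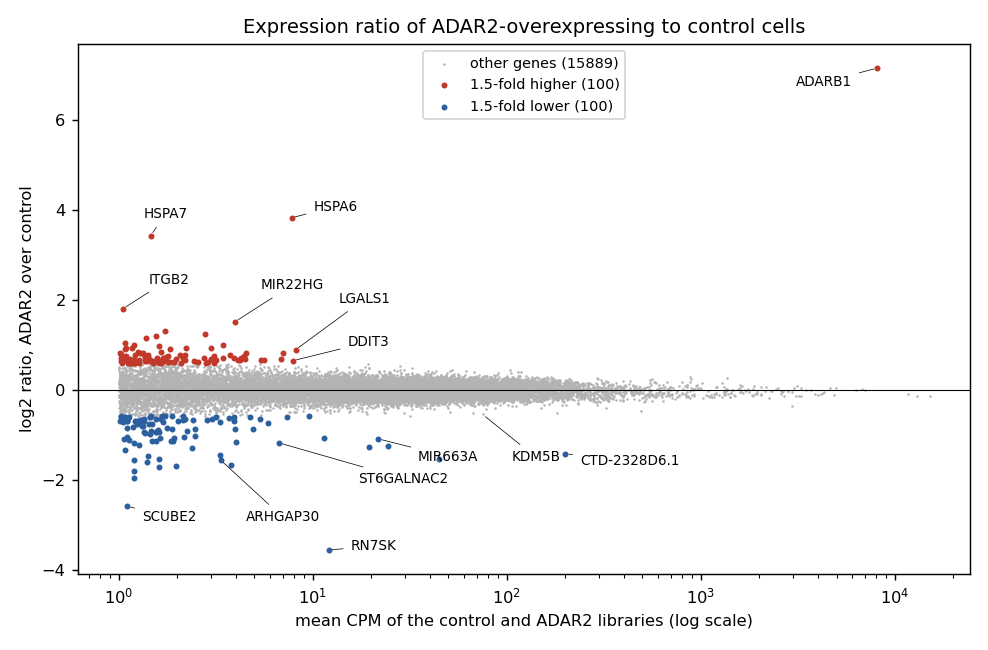
Each point is 1 of the 16089 measured genes, with its mean level over the control and ADAR2 libraries in CPM on a log axis and its log2 ratio of ADAR2 to control. Red points are the 100 genes called 1.5-fold higher and blue points the 100 called lower. ADARB1 is the red point at far right, HSPA6 and HSPA7 stand next highest, RN7SK is lowest, and the spread narrows as the level rises.

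The spread of the ratios exceeded counting error at every level. Among 2825 genes between 1 and 3 CPM the interquartile range of the log2 ratios was 0.38, where counting alone gives 0.18. Among 1870 genes over 100 CPM it was 0.20, where counting alone gives 0.02. One part of this spread followed base composition: the median log2 ratio climbed from -0.17 for the transcripts poorest in GC to 0.19 for the richest. Once that trend was taken off, the range for genes over 100 CPM was 0.10. A second rule was therefore used beside the first, which asked for a log2 ratio of at least 0.32 in either direction after removal of the trend and an equally shifted interval that excluded 1. It called 520 genes higher, 3.33% of the 15617 with a GC value, and 410 lower, 2.63%. At 10 CPM or more these came down to 35 higher and 39 lower.

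**Figure D2:**
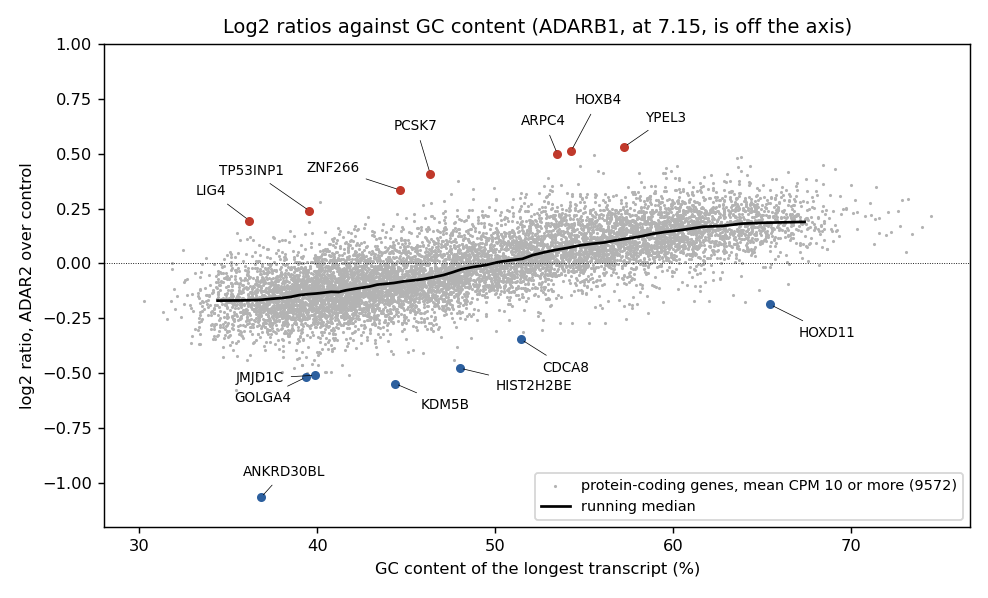
The log2 ratio of ADAR2 to control is plotted against the GC content of the longest transcript for 9572 protein-coding genes at 10 CPM or more (grey), with the running median (black). Coloured points are genes furthest above (red) or below (blue) that line: HOXD11 lies near -0.19 and yet far below genes of its GC content, and LIG4 at 0.20 lies far above genes of its own.

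Heat shock genes gave the largest ratios after ADARB1. The HSP70 chaperones bind unfolded protein segments and release them on ATP hydrolysis. HSPA8 is the constitutive member, HSPA1A and HSPA1B are the classical inducible pair, and HSPA6 is a strictly inducible member found in humans but not in mice. Inducible members are switched on by HSF1, which binds heat shock elements, arrays of inverted repeats of the unit NGAAN. The bases upstream of 3 of these genes are shown because the genes differ so much in ratio. The sequences run to the base before the RefSeq transcription start (build GRCh38.p14), and capitals mark the heat shock element TTCNNGAANNTTC or its reverse complement GAANNTTCNNGAA.
HSPA6, chr1:161524290-161524539, plus strand: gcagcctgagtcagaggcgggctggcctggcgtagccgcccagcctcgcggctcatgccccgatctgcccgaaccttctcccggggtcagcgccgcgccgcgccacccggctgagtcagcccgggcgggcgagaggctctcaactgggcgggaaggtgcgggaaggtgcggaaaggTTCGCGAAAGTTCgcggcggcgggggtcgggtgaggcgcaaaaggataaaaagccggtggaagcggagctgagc
HSPA1A, chr6:31815293-31815542, plus strand: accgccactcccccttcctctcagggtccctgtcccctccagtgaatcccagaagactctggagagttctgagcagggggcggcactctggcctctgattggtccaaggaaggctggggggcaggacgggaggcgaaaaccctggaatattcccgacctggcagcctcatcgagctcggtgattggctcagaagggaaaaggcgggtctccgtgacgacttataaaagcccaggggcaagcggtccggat
HSPA8, chr11:123062137-123062386, minus strand: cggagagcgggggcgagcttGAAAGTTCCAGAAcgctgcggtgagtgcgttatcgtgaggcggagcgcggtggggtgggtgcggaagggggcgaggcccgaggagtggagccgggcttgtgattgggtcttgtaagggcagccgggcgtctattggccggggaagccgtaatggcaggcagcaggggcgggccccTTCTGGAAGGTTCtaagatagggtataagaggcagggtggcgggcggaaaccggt

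HSPA6 has 1 match, starting 74 bases before the start site, HSPA8 has 2, starting 55 and 230 bases before it, and the HSPA1A stretch has none spelled in this way. Over 35116 RefSeq promoters, 0.441% hold a match in the same 250 bases.

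HSPA6 was counted with 158 reads without and 1947 with ADAR2, or 1.02 and 14.5 CPM, a ratio of 14.2 (12.1 to 16.8). HSPA7, a neighbouring pseudogene on chromosome 1, had 38 and 359 reads, or 0.246 and 2.67 CPM, a ratio of 10.9 (7.77 to 15.6). The longest HSPA7 transcript shares 56.3% of its 50-base words with HSPA6 transcripts, so reads of one may have been counted for the other. Both were also high in the library with ADAR2 and SRSF9, at 14.7 CPM for HSPA6 and 3.11 CPM for HSPA7.

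The other chaperones moved far less. HSPA1A had 794 CPM without and 972 CPM with ADAR2, a ratio of 1.22 (1.21 to 1.23). HSPA1B, which shares 71.4% of its 50-base words with HSPA1A, had 1239 and 1495 CPM, a ratio of 1.21, and reads may be split between the pair. HSPA8 was slightly lower, with 614 and 556 CPM and a ratio of 0.905 (0.896 to 0.914). Of the 10 measured HSP70 and HSP110 genes 2 were called at 1.5-fold, HSPA6 and HSPA7, both higher, against 0.622% of all measured genes. The median GC-adjusted log2 ratio was 0.09.

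Small heat shock proteins and several HSF1 targets lay between these extremes. HSPB1, which holds unfolding proteins in a soluble state, had 87.6 CPM without and 119 CPM with ADAR2, a ratio of 1.36 (1.33 to 1.39). Clusterin (CLU), an extracellular chaperone, had 7.79 and 10.2 CPM, a ratio of 1.3 (1.21 to 1.41), and ZFAND2A, an arsenite- and heat-inducible partner of the proteasome, had 9.04 and 11.7 CPM, also a ratio of 1.3. DNAJB1, the main HSP40 partner of inducible HSP70, was at 78.3 and 98.7 CPM with a ratio of 1.26. DNAJC30, a mitochondrial J-domain protein, passed 1.5-fold with 3.21 and 5.05 CPM and a ratio of 1.57 (1.4 to 1.77). In contrast BAG3, the HSP70 co-factor of selective autophagy, was at 39.1 and 43.6 CPM, a ratio of 1.11, and the HSP90 genes HSP90AA1 and HSP90AB1 had ratios of 0.921 and 0.943. Of 15 HSF1-inducible chaperones outside HSP70, 0 reached 1.5-fold and 2 were higher by the GC-adjusted rule, CLU and HSPB8 (list median 0.01). That rule called 3.33% of all genes with a GC value higher. HSPB8 had a mean level of 1.87 CPM, and between 1 and 3 CPM the rule called 23.7% of genes, both directions together. Of 34 HSP40 genes 1 was higher at 1.5-fold, where 0.622% of all measured genes were, and the list median was 0.02. Of the 12 outside HSP70 with a promoter sequence, 4 hold the same heat shock element (CHORDC1, HSP90AA1, HSP90AB1 and HSPD1), and their log2 ratios lay between -0.12 and -0.09.

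Genes of the integrated stress response, in which ATF4 and CHOP drive transcription when translation initiation is slowed, were divided. DDIT3, which encodes CHOP, had 6.16 CPM without and 9.66 CPM with ADAR2, a ratio of 1.57 (1.44 to 1.71). CHAC1, a glutathione-degrading enzyme downstream of both factors, had 4.16 and 6.63 CPM, a ratio of 1.59 (1.44 to 1.77). SESN2 and GDF15, targets shared with p53, had ratios of 1.33 and 1.41. Other genes of the list were close to the control: ATF4 was at 912 and 924 CPM, ATF3 at 109 and 104 CPM, and TRIB3 at 21.8 and 23.3 CPM. Of 20 measured targets 2 were called higher and 0 lower at 1.5-fold, against 0.622% of all measured genes in each direction. The list median was 0.06 against 0.01 over all genes. After the GC adjustment 15 of the 20 lay above 0, as did 8097 of all 15617 genes with a GC value (51.8%). The CHAC1 promoter is shown because 3 of 19 listed genes with a promoter sequence hold the CHOP-ATF4 type element TTGCATCA (or TGATGCAA) there. It starts 209 bases before the start site and is set in capitals (RefSeq, GRCh38.p14).
CHAC1, chr15:40953221-40953470, plus strand: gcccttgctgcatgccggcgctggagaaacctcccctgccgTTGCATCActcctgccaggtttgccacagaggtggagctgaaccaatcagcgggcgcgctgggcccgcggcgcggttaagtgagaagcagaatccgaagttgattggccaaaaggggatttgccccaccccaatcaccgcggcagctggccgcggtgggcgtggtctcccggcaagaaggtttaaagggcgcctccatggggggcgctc

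The other holders were CEBPG, with a ratio of 1.01, and JDP2, with a ratio of 1. This element is found in 0.772% of the 35116 promoters.

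Targets of p53 lay near the trend as a list, with 22 of 36 above 0 after the GC adjustment, and single members differed in either direction. TP53INP1, a cofactor of p53 in cell death and autophagy, had 12.7 CPM without and 15 CPM with ADAR2, which placed it among the 12 highest GC-adjusted coding genes at 10 CPM or more (0.38 on the log2 scale). CDKN1A, the p21 cell cycle inhibitor, had 43.9 and 58.4 CPM, a ratio of 1.33 (1.29 to 1.37), and PHLDA3, a repressor of Akt, had a ratio of 1.35. MDM2, the ubiquitin ligase that degrades p53, had a ratio of 1.1, and PLK2 went the other way at 0.782. None of the 36 was called at 1.5-fold, where 0.622% of all measured genes were in each direction, and the list median was 0.04. In the library with both proteins CDKN1A was at 36.1 CPM, below the control (ratio to control 0.821, 0.787 to 0.855). TP53INP1 was at 12.1 CPM there, near the control (ratio to control 0.95, 0.883 to 1.02).

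Immediate-early genes, which growth factors and stress switch on within minutes, split by gene. KLF2, a zinc finger factor of quiescent endothelial and lymphoid cells, had 167 reads without and 286 with ADAR2 (1.08 and 2.13 CPM), a ratio of 1.97 (1.62 to 2.4). DUSP2, a nuclear phosphatase of MAP kinases, had 1.12 and 1.77 CPM, a ratio of 1.58 (1.3 to 1.94). FOS, a subunit of AP-1, was lower at 27 and 21.9 CPM, a ratio of 0.81 (0.773 to 0.85), and CTGF, a matricellular target of YAP, was lower at 1.71 and 1.36 CPM. Of 35 measured genes 2 were called higher and 0 lower at 1.5-fold, with a list median of -0.04. Over all measured genes 0.622% were called higher. Both genes had mean levels between 1 and 3 CPM, where 78 of 2825 genes were called higher. The MAP kinase feedback list held DUSP2 as well, and ETV5, an ETS factor, at 1.66 and 2.51 CPM (ratio 1.51). Its relative ETV4 had 1.22 and 0.998 CPM (ratio 0.816), and SPRED3, an inhibitor of the pathway, a ratio of 0.86. That list had 2 of 21 higher, DUSP2 and ETV5, both in the same range of levels, 0 lower, and a median of -0.03.

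A few scarce genes known from leukocytes or the vessel wall were called higher, and others were not. They form no list and were picked after their values were seen. ITGB2, the beta subunit of leukocyte integrins, had 72 reads without and 219 with ADAR2, 0.466 and 1.63 CPM, a ratio of 3.5 (2.67 to 4.63). It lies near ADARB1 on chromosome 21, as given above. CARD9, an adaptor of fungal sensing in myeloid cells, had 1.66 and 3.91 CPM, a ratio of 2.36 (2.03 to 2.75). INPP5D, the SHIP1 lipid phosphatase of blood cells, and FERMT3, their kindlin, both had ratios of 1.91. ENG, the endothelial co-receptor endoglin, had a ratio of 1.78, and LGALS1, galectin-1, went from 5.71 to 10.6 CPM, a ratio of 1.85 (1.7 to 2.02). CD101, a leukocyte surface protein, was called lower, with 523 reads without and 186 with ADAR2, a ratio of 0.409 (0.344 to 0.485). ITGAM, an alpha partner of ITGB2, had 59 and 47 reads, a ratio of 0.917 (0.611 to 1.37). The general leukocyte marker PTPRC and the myeloid factor SPI1 had ratios of 0.959 and 1.06 on 6 and 40 control reads. Other markers of blood differed in either direction, HBA1 at 1.29 and HBB at 0.798, and 0 of 6 measured passed 1.5-fold (median -0.09). MIR22HG, the host transcript of a microRNA, had 2.06 and 5.87 CPM, a ratio of 2.85 (2.5 to 3.26). In the library with both proteins KLF2 and FERMT3 were at 1.2 and 0.751 CPM, next to the control, and ITGB2 and MIR22HG at 1.38 and 4.19 CPM, between control and ADAR2 for both. HBB was at 383 CPM in that library, against 1.44 CPM in the control.

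**Figure D3:**
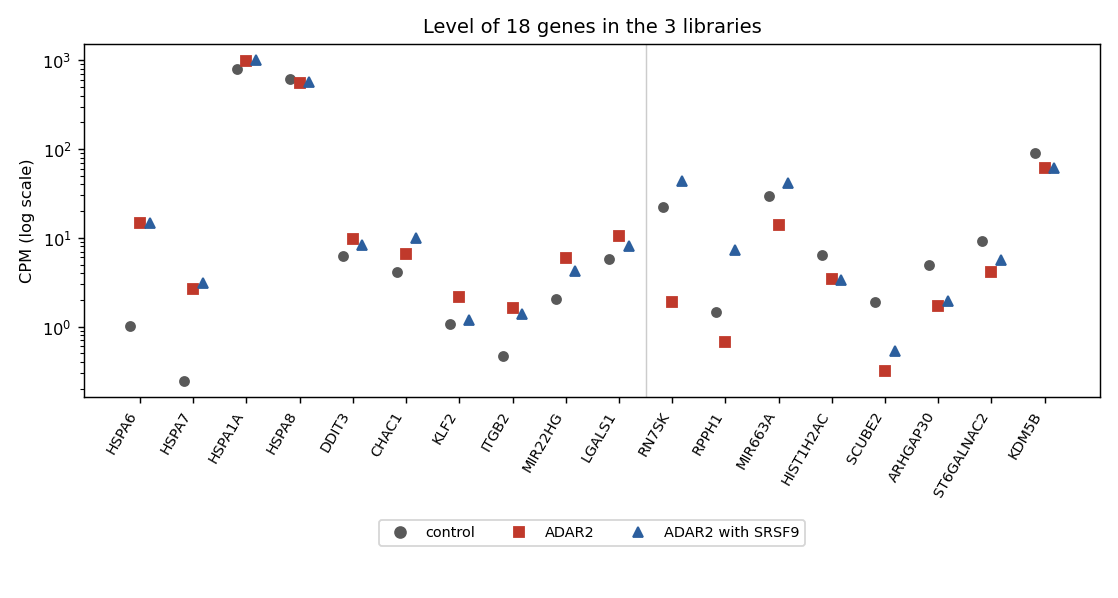
The level in CPM, on a log axis, of 18 genes in the control (grey circles), ADAR2 (red squares) and ADAR2 with SRSF9 (blue triangles) libraries, 1 library each. Left of the grey line the ADAR2 library lies above the control for 9 of the 10 genes (HSPA8 is the exception), and right of it lies below the control for all 8, with RN7SK, RPPH1 and MIR663A above the control again in the third library.

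The lowest ratio of all belonged to an RNA made by RNA polymerase III, and the others measured on its list were also below the control. RN7SK, the scaffold RNA that holds the elongation factor P-TEFb inactive, had 3438 reads without and 253 with ADAR2, 22.2 and 1.88 CPM, a ratio of 0.0847 (0.0742 to 0.0962). RPPH1, the RNA of ribonuclease P, had 1.44 and 0.67 CPM, a ratio of 0.464 (0.359 to 0.596), and the U6 copy RNU6-2 had a ratio of 0.742. The signal recognition particle RNAs RN7SL1, RN7SL2 and RN7SL3 lay between 0.839 and 0.855, and BCYRN1 at 0.962. All 7 measured RNAs of the list were below 1, 2 of them past 1.5-fold, where 0.622% of all measured genes were called lower. The GC adjustment is void for this list, since 4 of 7 have a GC value, and the unadjusted median log2 ratio was -0.25. The 4 rows named Y_RNA on chromosome 16, a kind of RNA also made by this polymerase, went the other way with ratios of 1.67 to 2.05. All 4 have a length of 100 bases and a GC content of 46%. They may be near copies that share reads, which was not tested. RNU6-4P, a U6 copy outside the list, was called lower, with a ratio of 0.62 (0.502 to 0.771). These Y_RNA and U6 rows were noticed after their values were seen.

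MIR3648 and MIR3687, which lie in the transcribed spacer of ribosomal DNA, had 5.56 and 2.4 CPM in the control and 2.47 and 0.819 CPM in the ADAR2 library, ratios of 0.445 and 0.341. The row named MIR663A, a longer transcript under that symbol, had 29.6 and 13.9 CPM, a ratio of 0.47 (0.445 to 0.496), and ANKRD30BL had 15.5 and 7.4 CPM, a ratio of 0.477 (0.443 to 0.514). The clone-named row CTD-2328D6.1 was the most abundant of the lower genes, at 292 and 109 CPM (ratio 0.373). These rows and RN7SK were at or above the control in the library with both proteins: 43.3 CPM for RN7SK, 7.35 CPM for RPPH1, 41 CPM for MIR663A and 652 CPM for CTD-2328D6.1. RNA polymerase III transcripts such as RN7SK end without a poly(A) tail, and the sources used here do not say how messenger RNA was enriched from total RNA. The part that enrichment plays in these ratios was not tested, nor was the origin of the reads counted for MIR663A, ANKRD30BL and CTD-2328D6.1.

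The protein partners of 7SK showed no such drop. HEXIM1, the protein that blocks P-TEFb on 7SK, had 97.4 and 86.9 CPM (ratio 0.892), LARP7, which binds the end of the RNA, 65.8 and 59 CPM (ratio 0.896), and MEPCE, which caps it, 69.5 and 76.9 CPM (ratio 1.11). HEXIM2 was highest at 1.7 and 2.52 CPM, a ratio of 1.49 (1.26 to 1.76). Across 23 measured 7SK and P-TEFb proteins the median was -0.03.

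Most replication-dependent histone genes had ratios below 1. Their messages end mostly without poly(A), and the part of this in their ratios was not tested. HIST1H4E had 276 reads without and 103 with ADAR2, a ratio of 0.429 (0.339 to 0.54). HIST1H2AC had 6.33 and 3.48 CPM, a ratio of 0.549 (0.491 to 0.614). HIST1H2BD and HIST1H2BJ, which encode core histone H2B, had ratios of 0.639 and 0.663. Among 21 measured genes 4 were called lower and 0 higher at 1.5-fold, against 0.622% of all measured genes in each direction. Of the 21, 3 lay above 1, and the unadjusted median log2 ratio was -0.18. The adjustment is again void, with a GC value for 13 of 21. HIST2H2BE, at 15.6 and 11.2 CPM (ratio 0.718), was among the 12 lowest coding genes at 10 CPM or more after the GC adjustment. In the library with both proteins, where RN7SK was above the control, most of these named histone genes were still below it. Ratios to control there were 0.524 for HIST1H2AC, 0.711 for HIST1H2BD, 0.808 for HIST1H2BJ and 0.879 for HIST2H2BE, and HIST1H4E was above it at 1.21.

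Most mitotic genes lay slightly below their GC trend. CDCA8, the borealin subunit of the chromosomal passenger complex, had 103 CPM without and 80.9 CPM with ADAR2, a ratio of 0.787 (0.768 to 0.806). TOP2A, the topoisomerase that untangles sister chromatids, had 569 and 412 CPM, a ratio of 0.725 (0.717 to 0.732). ECT2, which starts cytokinesis, had a ratio of 0.744 and BUB1B, a checkpoint kinase, 0.777. After the GC adjustment 40 of the 47 spindle checkpoint and mitotic kinase genes were below 0, with a median of -0.11, against 0.01 over all genes. By the adjusted rule 1 was called lower, where 2.63% of all genes with a GC value were. Adjusted values ran from -0.37 to 0.18, the highest being HMMR, a spindle protein with a ratio of 1.01. Related lists were shifted less or not at all. The median was -0.04 for condensin and cohesin (15 of 24 below 0) and -0.03 for kinesins (21 of 36 below 0). It was -0.03 over 52 replication genes (31 below 0), 0.00 over 40 kinetochore genes and 0.05 over 17 genes of the anaphase-promoting complex. CDC20, the activator of that complex and also in the mitotic list, stood at 159 and 149 CPM. Its adjusted log2 ratio of -0.22 was the lowest of the anaphase-promoting list.

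KDM5B and JMJD1C were the lowest histone demethylases and among the 12 lowest GC-adjusted coding genes at 10 CPM or more. KDM5B, which removes methyl groups from lysine 4 of histone H3, had 89 CPM without and 60.9 CPM with ADAR2, a ratio of 0.684 (0.666 to 0.703). JMJD1C had 34.5 and 24.2 CPM, a ratio of 0.702. Of 21 demethylases 14 were below 0 after the adjustment, with a median of -0.06. KDM2B was the next lowest after the adjustment, with a ratio of 0.967.

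Other coding genes at 10 CPM or more that lay far below their GC trend had no family in common. GOLGA4, a tether of the Golgi, had 212 and 148 CPM, a ratio of 0.698 (0.686 to 0.711), while the list of 24 golgins and tethers had a median of -0.02. C10orf118 was at 0.67, LIN7A, a synaptic scaffold, at 0.69, UTP14C, a retrotransposed ribosome biogenesis gene, at 0.703 and C1orf192 at 0.738. HAP1, the partner of huntingtin, had a ratio of 0.839 and HOXD11 0.878, and both are GC-rich enough that their adjusted log2 ratios were -0.37. UTP14C shares 5.31% of its 50-base words with UTP14A.

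Among coding genes at 10 CPM or more, PCSK7 stood above the trend. It is a secretory pathway protease and had 36.9 CPM without and 49 CPM with ADAR2, a ratio of 1.33 (1.28 to 1.38). YPEL3, a growth-suppressing nuclear protein, had a ratio of 1.45, HOXB4 1.43, ARPC4, a subunit of the actin-branching Arp2/3 complex, 1.41, and ZDHHC11, a palmitoyltransferase, 1.41. ANKRD18A (1.21), NOL8, a nucleolar protein (1.18), and LIG4, the ligase of DNA end joining (1.15), were also among the 12 highest, as were ADARB1, TP53INP1, ZFAND2A and ZNF266. HOXB4 and HOXD11 belong to one list in which 33 HOX genes had a median of -0.02, with 2 called on each side by the adjusted rule. These calls include HOXB4 and HOXD11, which were named here as extremes. Over all genes with a GC value that rule called 3.33% higher and 2.63% lower. The 22 palmitoyltransferases had a median of 0.05.

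Scarcer genes on the lower side included several for membrane and secreted proteins, and the examples here were chosen after their values were seen. SCUBE2, a secreted partner of Hedgehog, had 293 reads without and 42 with ADAR2, a ratio of 0.165 (0.116 to 0.229). MGAM, an intestinal maltase, had a ratio of 0.303 and PDZK1, a scaffold of kidney transporters, 0.369. ST6GALNAC2, a sialyltransferase, went from 9.28 to 4.1 CPM, a ratio of 0.441 (0.399 to 0.487). MLH3, a mismatch repair protein, was at 0.543. In the library with ADAR2 and SRSF9 the level was 0.532 CPM for SCUBE2, 1.6 CPM for PDZK1 and 5.64 CPM for ST6GALNAC2, on the same side of the control, whose values were 1.9, 4.85 and 9.28 CPM.

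A list of zinc finger genes and complex I lay slightly above the trend. The listed C2H2 zinc finger genes, many of them repressors in clusters on chromosome 19, had a median adjusted log2 ratio of 0.12 over 69 genes. Of these 52 lay above 0 and 4 were called higher by the adjusted rule. Over all 15617 genes with a GC value 8097 lay above 0 and 3.33% were called higher. The 217 coding genes of the ZNF stem at 10 CPM or more had an adjusted median of 0.02, with 127 above 0. The list was taken at 1 CPM or more, and whether level or membership sets the 2 medians apart was not tested. ZNF266 went from 26.7 to 33.7 CPM (ratio 1.26), ZNF419 from 6.93 to 9.12 CPM (1.31), and ZNF224 and ZNF234 had ratios of 1.21. Without the adjustment the median of this GC-poor list was 0.00. Complex I, the entry point of the respiratory chain, had a median of 0.09 over 37 subunits both before and after the adjustment, with 26 above 0 before it and 27 after. NDUFA13 had 2.4 and 3.4 CPM (ratio 1.42) and NDUFA7 0.945 and 1.27 CPM (ratio 1.34). The other 40 nuclear-encoded respiratory subunits had a median of 0.02, and the 13 mitochondrially encoded messages 0.00.

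**Figure D4:**
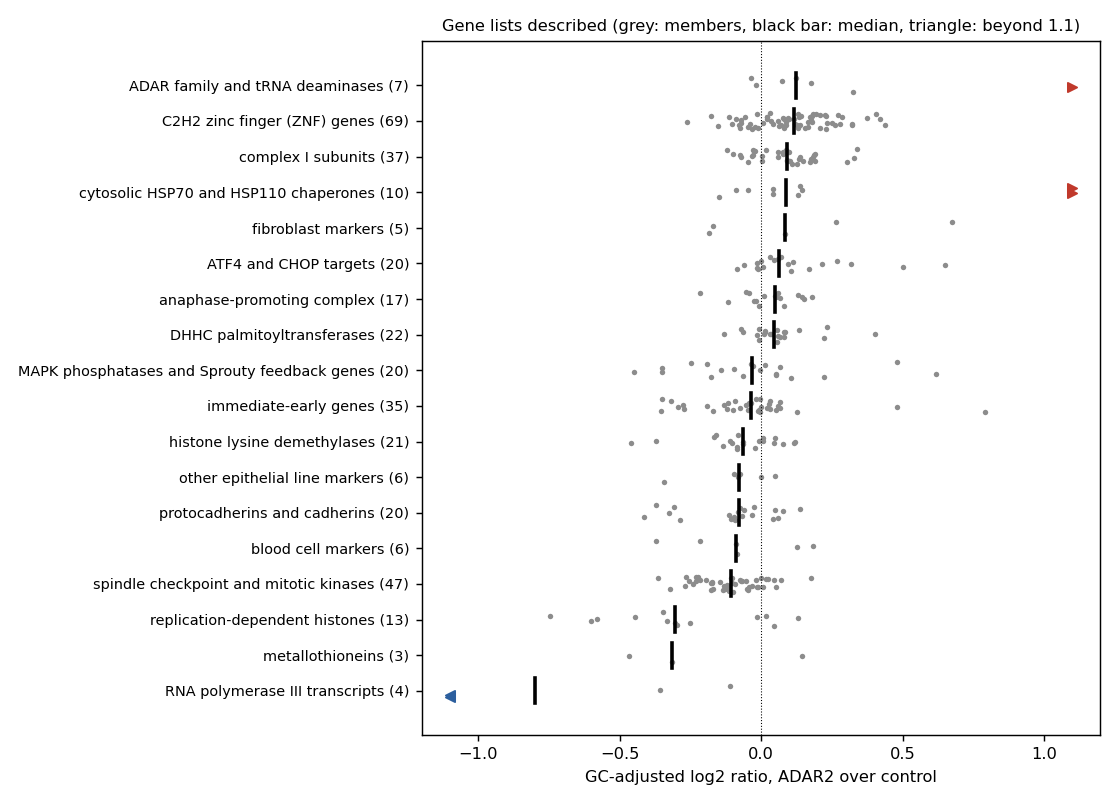
GC-adjusted log2 ratios of ADAR2 to control for the 18 gene lists described, with members as grey points, the median as a black bar and the number of members with a GC value in parentheses. Triangles stand for members beyond 1.1 on this scale. Most medians lie within 0.12 of 0, with 40 of 47 mitotic genes below 0 and 52 of 69 zinc finger genes above it.

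Small lists stood out through few genes. Of 10 metallothioneins, zinc- and copper-buffering proteins, 3 were measured: MT1X with 1.38 and 1.04 CPM (ratio 0.756), MT1F (0.877) and MT2A (1.16), with a median of -0.31. Of 5 measured fibroblast markers ACTA2, smooth muscle actin, had 3.24 and 5.28 CPM, a ratio of 1.63 (1.45 to 1.83), COL1A1 had 33.1 and 32.6 CPM, and the median was 0.09. Protocadherins and cadherins had a median of -0.08 over 20, with PCDH1 (0.832), PCDH17 (0.764) and PCDH19 (0.768) lower by the adjusted rule. All 3 had mean levels between 1 and 3 CPM, where that rule called 23.7% of genes, both directions together. The 6 measured markers of other epithelial lines had the same median, and MUC1 was their lowest at 2.09 and 1.88 CPM. Interferon-stimulated genes had an adjusted median of -0.04 over 31, with 22 below 0, whereas before the adjustment 17 of 31 lay above 0. ISG20, an exonuclease, was higher at 1.33 and 2.08 CPM (ratio 1.56), and IFI27 lower at 5.04 and 3.43 CPM (ratio 0.682). The 21 sensors and binders of double-stranded RNA had a median of -0.03 and the 35 genes with known edited transcripts 0.01. In both lists 0 were called in either direction by either rule. Over all genes 0.622% were called in each direction at 1.5-fold, and 3.33% higher and 2.63% lower by the adjusted rule. At such shares lists this short can hold 0 without differing from all genes.

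The other 65 of the 83 lists had GC-adjusted medians between -0.06 and 0.04. Together they held 4 genes called higher and 2 called lower at 1.5-fold, where 0.622% of all measured genes were called in each direction. The lowest of them were tight junction proteins (-0.06), Hippo and YAP genes (-0.06), collagens with laminins and integrins (-0.05) and neuronal genes (-0.05). At or near 0 were the SR splicing factors (0.02), hnRNP proteins (0.02), large-subunit ribosomal proteins (-0.04), small-subunit ribosomal proteins (-0.01), nonsense-mediated decay factors (0.02), ER chaperones (0.00) and cholesterol synthesis genes (-0.03). The highest were the amino acid transporters, p53 targets, proteasome subunits and mitochondrial ribosomal RNA copies, all at 0.04.

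Of the remaining lists, condensin and cohesin and the tubulins had medians of -0.04. At -0.03 were NRF2 targets, kinesins, globins, Arp2/3 and WAVE genes, ion channels, Wnt genes, HEK293 identity genes, Notch genes and the signal recognition particle with the translocon. At -0.02 were mRNA decay factors, translation factors, histone methyltransferases and snoRNA hosts. At -0.01 were TGF-beta genes, vesicle coats, glycolysis and hypoxia genes, replication-independent histones, the TRiC chaperonin, chromatin remodellers and the nuclear pore. At 0.00 were the tRNA synthetases, YPEL genes with cell cycle inhibitors, one-carbon enzymes, Mediator, DNA repair genes, RAB GTPases and ribosome biogenesis factors. At 0.01 were RNA polymerase II with its general factors, autophagy genes, mitochondrial ribosomal proteins and Polycomb genes. At 0.02 were the DEAD box helicases, nuclear long noncoding RNAs, clock genes and centrosome proteins, and at 0.03 lysosomal proteins.

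Families defined by a shared symbol stem spanned still less. Among 78 families of at least 12 coding genes at 10 CPM or more, the adjusted medians ran from -0.07 to 0.05. The lowest were KDM (-0.07), collagens (COL, -0.07, with COL7A1 at a ratio of 0.92), tetraspanins (TSPAN, -0.05, with TSPAN13 at 0.852 and TSPAN9 at 0.989), myosins (MYO, -0.05, with MYO1D at 0.926 and MYO10 at 0.915), tyrosine phosphatases (PTPN, -0.05, with PTPN14 at 0.841 and PTPN21 at 0.897) and RNA-binding RBM genes (-0.04, with RBM12B at 0.708 and RBM41 at 0.826). The highest were CYB (0.05, with CYB5D1 at 1.11 and CYB561A3 at 1.12), zinc finger ZC genes (0.05, with ZC3H4 at 1.27 and ZC4H2 at 1.06), FKBP prolyl isomerases (0.05, with FKBP7 at 0.999 and FKBP14 at 0.983), ANKRD (0.05, with ANKRD26 at 1.05), mitochondrial import TIMM genes (0.05, with TIMM22 at 1.14 and TIMM9 at 1.01) and proteasome PSMD genes (0.04, with PSMD13 at 1.06 and PSMD7 at 1.02). The ratios of members are unadjusted, and the members are the furthest of their family after the adjustment. Before the adjustment the medians of ZC (-0.04), ANKRD (-0.03) and PSMD (-0.03) were below 0 and that of COL (0.03) above it. The other families named here had the same sign before and after it.

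The larger noncoding classes sat a little above coding genes. The median log2 ratio was 0.09 over 559 antisense genes, 0.06 over 402 long intergenic RNAs and 0.04 over 1147 processed pseudogenes, against -0.01 over 12758 protein-coding genes. The 12 long noncoding RNAs of bidirectional promoters lay lower, at -0.08. Because the sources used here do not say which strand was counted, reads of antisense genes and their partners cannot be told apart.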

How the data were processed

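Per the labels' protocols, Trizol-purified total RNA went into NEBNext Ultra Directional libraries. The submitters' processing notes name hg19, STAR, Picard, GATK and SAMtools. The sources used here do not give the counting program or strand setting. The values are raw counts of reads by gene, as the authors deposited them, with gene symbols. No row lacked a gene name.

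Counts were scaled by TMM over all 3 libraries (edgeR 4.0.16, R 4.3.3) to CPM. Ratios carry exact Clopper-Pearson 95% counting intervals, and log2 ratios a prior count of 0.5. PCR copies are not independent molecules, so these intervals cover counting error only. A count of 3 reads equals 0.0194 CPM (control) or 0.0223 CPM (ADAR2). Gene types and GC content came from GENCODE v29 (GRCh38), which held 51802 of the identifiers and 15617 of the 16089 measured genes. Its build is not the authors', and its coordinates were used only to order the genes around ADARB1. The GC trend was taken as bin medians over 50 bins of equal gene number, from 9572 coding genes, smoothed over 5 bins. Ratios and figures were made in Python 3.11.15 (scipy 1.17.1, numpy 2.4.6, pandas 2.3.3, matplotlib 3.10.9), and the calculation was tested on simulated data. No test was run, since each group has 1 library.

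The members and lists were chosen with earlier results of these data known. Named genes were ADARB1, ADAR, ADARB2 and SRSF9, the 12 highest and 12 lowest GC-adjusted coding genes at 10 CPM or more, other genes there past 2-fold, up to 4 called members of each list described (the 8 highest and 8 lowest medians, and lists with 2 or more members past 1.5-fold) and 2 per symbol family. Others are said to be chosen after their values were seen, or are the background of a list. Other settings are given in the closing section.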

Additional observations from a re-analysis of the deposited data

How the results depend on the processing

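No paired analysis was possible because each group has 1 library, and no library could be left out. Across 14 other settings the ADARB1 ratio stayed within its counting interval. They were DESeq2 1.42.0 size factors, plain totals, upper-quartile scaling, totals without mitochondrial and overexpressed genes, a prior count of 5, means in place of medians, GC averaged over all transcripts, a further length trend and those named below. The median log2 ratio of all genes stayed between -0.0173 and 0.0185. The counts of called genes stayed within 1.5 times under these scalings, priors and trends, and depended on the filter and the threshold, and are given here as higher and lower at 1.5-fold, then higher and lower at 0.32 on the log2 scale with the GC trend removed. With no filter on low counts they were 1555, 2103, 2023 and 2274. With a mean of 10 CPM or more they were 1, 7, 35 and 39. With the interval wholly beyond the fold they were 22, 50, 87 and 95. With 2-fold for both they were 11, 36, 10 and 28. With protein-coding genes alone they were 46, 56 and 211, and the last count was 278. Fewer or more genes tested, or a stricter rule, is what these settings change by construction. Of the 18 lists described, 3 changed the sign of their median under a setting: metallothioneins, fibroblast markers and blood cell markers, when the filter on low counts was changed. A setting added after the data were seen left out the RNA polymerase III list, MIR3648, MIR3687, MIR663A, ANKRD30BL and the clone-named row AC010970.2. It gave 100 higher and 93 lower genes. None of the 12 symbol families changed sign. Genes under 3 CPM, which are most of those called, rest on few reads, and with 1 library a side the spread between cultures is unknown.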
